A study of Homo sapiens with 5 samples.

Results

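The loci described here are those of 9 human genes that encode receptors for activin, TGF-β and bone morphogenetic proteins (BMPs). SMAD2 binding was mapped by chromatin immunoprecipitation and sequencing (ChIP-seq) in T47D, an established human luminal breast cancer line that expresses the estrogen receptor. Libraries came from cells given palbociclib at 1 µM for 24 h together with activin A at 50 ng/ml for 1.5 h (2 libraries), and from cells given the same activin A alone (2 libraries). All 4 libraries share the activin stimulus, T47D is a single cell line, and nothing in the labels tells separate cultures from repeats of 1 culture, so library-to-library spread may be technical. Untreated cells gave 1 input library, which by its label entered the peak calling and which was not analysed here. Each deposited list holds the summits (highest points) of the peaks of 1 library, with a score that is read as the −log10 of the peak's q value. The members were chosen by position, not by their scores: all summits inside a gene's span on hg19 or within 20 kb of it. That gave 149 summits in windows that add up to 1400 kb. Summits lying at most 200 bp from their neighbour were joined into regions, and the windows held 74 of the 115321 regions of the 4 lists.

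Ligands of the TGF-β family assemble type II receptors with type I receptors at the cell surface. The type II kinase phosphorylates the type I receptor, which in turn phosphorylates SMAD proteins that enter the nucleus and bind DNA with SMAD4. ACVR1B and TGFBR1, the type I receptors of activin and TGF-β, act on SMAD2 and SMAD3, whereas ACVR1 and BMPR1A act mainly on the SMADs of the BMP branch. In breast epithelium the pathway restrains growth, and loss of TGFBR2 is a known way for carcinoma cells to escape TGF-β. A SMAD2 summit at one of these genes is therefore read as the pathway's own effector on the DNA of a pathway component. No ChIP library without activin was available to compare, and feedback was not tested. The lists do not show whether the gene's transcription changed.

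The promoters of 5 of the 9 genes are shown because the genes span the range found within 2 kb of the start sites. That range runs from the highest-scoring region at BMPR2 to no summit at TGFBR2. The sequences shown are shorter than that interval and need not contain the summits. They are RefSeq sequences on GRCh38.p14, from 250 bases before the start to 50 after it, 5′ to 3′ on the strand of the gene, and for TGFBR1, ACVR1 and TGFBR2 the first of 8, 3 and 2 promoters listed. They lie at chr2:202376077-202376376 (+) for BMPR2, chr2:157876281-157876580 (-) for ACVR1, chr10:86755513-86755812 (+) for BMPR1A, chr9:99104863-99105162 (+) for TGFBR1 and chr3:30606106-30606405 (+) for TGFBR2. Capitals mark matches on either strand to the SMAD motif CAGAC or to the GC-rich SMAD motif GGCGC.
BMPR2: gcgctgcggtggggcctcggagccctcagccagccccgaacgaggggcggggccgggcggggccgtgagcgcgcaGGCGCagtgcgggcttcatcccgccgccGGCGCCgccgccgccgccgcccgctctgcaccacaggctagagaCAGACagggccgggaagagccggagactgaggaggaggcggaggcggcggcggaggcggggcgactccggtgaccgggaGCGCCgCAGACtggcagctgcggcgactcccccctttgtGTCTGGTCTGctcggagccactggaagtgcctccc
ACVR1: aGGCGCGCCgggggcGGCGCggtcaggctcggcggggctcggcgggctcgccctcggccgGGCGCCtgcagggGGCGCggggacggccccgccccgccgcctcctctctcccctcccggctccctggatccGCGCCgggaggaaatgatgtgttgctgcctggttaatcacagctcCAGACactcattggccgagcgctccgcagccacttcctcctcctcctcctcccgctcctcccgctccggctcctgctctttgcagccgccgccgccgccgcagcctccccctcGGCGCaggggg
BMPR1A: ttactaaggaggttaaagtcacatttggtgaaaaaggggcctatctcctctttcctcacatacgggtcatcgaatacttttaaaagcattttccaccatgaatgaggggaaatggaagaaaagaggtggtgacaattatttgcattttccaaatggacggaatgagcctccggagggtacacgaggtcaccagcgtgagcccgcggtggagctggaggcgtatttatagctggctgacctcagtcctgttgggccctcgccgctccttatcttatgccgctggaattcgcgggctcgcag
TGFBR1: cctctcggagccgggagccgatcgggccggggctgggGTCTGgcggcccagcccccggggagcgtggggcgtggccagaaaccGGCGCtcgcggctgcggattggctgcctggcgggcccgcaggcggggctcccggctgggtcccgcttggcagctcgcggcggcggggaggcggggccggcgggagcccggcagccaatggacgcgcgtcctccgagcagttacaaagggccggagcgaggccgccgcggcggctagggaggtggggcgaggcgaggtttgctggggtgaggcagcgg
TGFBR2: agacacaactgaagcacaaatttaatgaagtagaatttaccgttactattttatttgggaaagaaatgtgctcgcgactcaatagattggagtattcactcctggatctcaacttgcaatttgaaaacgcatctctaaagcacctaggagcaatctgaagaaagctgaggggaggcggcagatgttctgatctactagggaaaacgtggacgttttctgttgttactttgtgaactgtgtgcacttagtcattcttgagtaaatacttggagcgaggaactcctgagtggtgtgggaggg

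The SMAD motif CAGAC was found 4 times in the BMPR2 promoter and 1 time each in those of ACVR2A, TGFBR1 and ACVR1. It was therefore present in 4 of the 9 receptor promoters, beside 45.0% of the first-listed promoters of 27305 genes. The motif GGCGC was present in 6 of 9, beside 48.3% of all, with 13 matches at ACVR1B, 8 at ACVR1, 4 at BMPR2, 3 at ACVR2B, 2 at TGFBR3 and 1 at TGFBR1. A palindromic stretch was counted on both strands, so overlapping GGCGC matches are included in these numbers. The 6 promoters with GGCGC were rich in G and C, at 71.7% to 82.3% of their bases. The 3 without it had 41.3% to 50.3%, and the median of all first-listed promoters was 58.3%. Whether GGCGC exceeds what base composition gives was not tested. The palindrome GTCTAGAC, the AP-1 motif TGANTCA and the FOXH1 motif AATCCACA had 0 matches in the 9 promoters, and were found in 0.201%, 7.76% and 0.798% of all. None of the searched motifs is contained in another. BMPR1A, whose start carried summits in every library, and TGFBR2, whose start carried none, each had 0 matches to the searched motifs in this window. The windows of 300 bases come from another build than the summit lists, and no base of a promoter was matched to a summit. By its distance of −1.79 kb, the leading ACVR1 region lay upstream of the ACVR1 window. The leading BMPR2 region lay at −0.31 kb from a start rounded to 1 kb, so whether the BMPR2 window reaches it cannot be told. The motif counts are therefore not counts under the summits.

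SMAD2 summits at the receptor genes were densest around the gene starts, although 77 of the 149 lay elsewhere in the windows. Of the 149 summits, 72 (48.3%) lay within 2 kb of one of the 9 start sites, an interval that makes up 2.57% of the windows' length. A further 27 lay elsewhere in the spans, 18 upstream and 32 past the ends. The start site used is the end of the span from which the gene is read, rounded to 1 kb. On GRCh38.p14, the start listed by RefSeq lies 19.9 kb inside the outer end of the RefSeq gene for TGFBR3. The count at the TGFBR3 start therefore refers to the outer end alone. For the other genes that distance is at most 1.47 kb. The distance between the span ends on hg19 and the RefSeq starts was not measured. In 6 of the genes, ACVR2A, ACVR2B, BMPR2, TGFBR1, ACVR1 and BMPR1A, a summit lay within 2 kb of the start in each of the 4 libraries. ACVR1B had one in 3 libraries, TGFBR2 had none, and TGFBR3 had none at the outer end of its span. Of the 15 regions found in all 4 libraries, 10 lay within 2 kb of a start, 1 upstream, 2 in a span and 2 past an end. The distance between the outermost summits of such a region was 18 to 324 bp, with a median of 92 bp. How often the starts of other genes carry a summit was not measured, because no annotation on hg19 was used here.

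**Figure D1:**
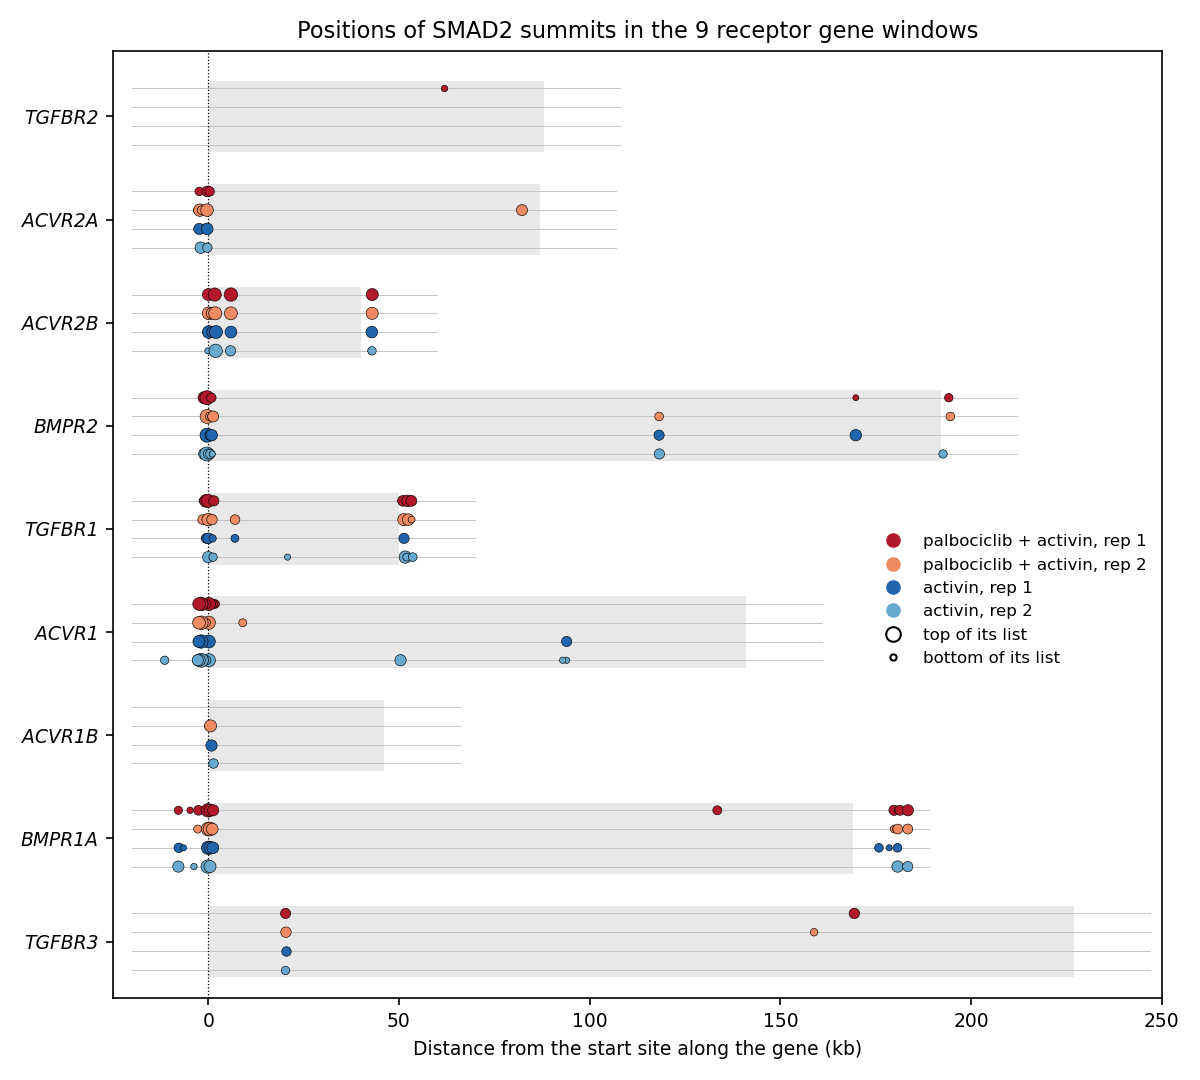
Each dot is a SMAD2 summit, placed by its distance in kb from the start site along the gene, with 1 line per library (from the top: palbociclib with activin replicates 1 and 2, then activin replicates 1 and 2). Grey boxes are the gene spans, lines extend 20 kb beyond them, and dot size grows with the position of the summit in its own list. Dots gather at 0 kb in 6 genes, TGFBR2 has 1 dot, and TGFBR3 has a column of 4 dots about 20.3 kb inside its span.

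Among the type II receptors, BMPR2, which binds BMPs, carried the highest-scoring region of the 9 windows. It lay on chromosome 2 at 203240655 to 203240714, at −0.31 kb from the start (upstream). It scored 113 and 92.8 in the palbociclib libraries and 85.0 and 79.3 in the activin libraries. The region thus stood within the first 6.78% and 7.76% of the palbociclib lists and the first 6.58% and 7.19% of the activin lists. Scores depend on the read depth of a library, which is unknown, so scores are compared only within a list. A weaker region at 203241828 to 203242066, 0.90 kb inside the gene, was also found in every library. Its scores were 5.98 and 3.77 with palbociclib, against 10.8 and 2.36 with activin alone. Of the 23 summits in the window, 15 lay within 2 kb of the start. Beyond the start, a region at 118 kb inside the gene was listed in palbociclib replicate 2 and in both activin libraries. Its scores were 4.80, 7.16 and 6.31. Another at 170 kb inside the gene scored 1.92 in palbociclib replicate 1 and 10.85 in activin replicate 1. Further regions, each listed in 1 library, lay 0.66 to 2.58 kb past the end. The longest stretch without a summit in any library covered 117 kb of the gene body.

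The window of ACVR2B, a type II receptor of activin, held 4 regions found in all libraries, more than any other of the 9 windows. The last of them lay past the end of the gene, and the windows of ACVR1 and BMPR1A held 3 each. The leading ACVR2B region lay on chromosome 3 at 38496716 to 38497040, 1.91 kb inside the gene. It scored 34.9 and 29.1 in the palbociclib libraries and 28.3 and 36.2 in the activin libraries. The region at the start itself, at 38494892 to 38495143, scored 13.8 and 20.8 with palbociclib and 21.4 and 1.92 with activin alone. Its place in activin replicate 2 was close to the bottom of that list, at 99.0% from the top. A region 5.95 kb inside the gene, at 38500858 to 38500969, scored 45.8 and 24.8 with palbociclib and 12.7 and 6.63 with activin alone. It stood at 17.0% and 23.7% from the top of the palbociclib lists and at 39.97% and 58.5% from the top of the activin lists. Lists of different length and depth have no common scale, so these positions are not read as a change. The last region, at 38537748 to 38538014, lay 2.94 kb past the end of ACVR2B, on the side of EXOG, a gene for a mitochondrial nuclease that comes next among protein-coding genes in the RefSeq order. Whether this summit belongs to ACVR2B or to EXOG cannot be told apart from the lists.

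ACVR2A, the other activin type II receptor, carried weaker summits, nearly all around its start. The region found in all libraries lay on chromosome 2 at 148601698 to 148601790, at −0.25 kb from the start (upstream). It scored 8.28 and 18.7 in the palbociclib libraries and 12.1 and 5.24 in the activin libraries. A region at −2.34 kb was listed in both palbociclib libraries and in activin replicate 1, with scores of 4.89, 15.9 and 9.58. TGFBR2, the type II receptor of TGF-β, was nearly without summits. The window of 128 kb held 1 summit in the 4 lists together, in palbociclib replicate 1, with a score of 2.99 and a place at 95.7% from the top. It lay 61.9 kb inside the gene, at position 30709886 of chromosome 3. Sparse stretches were common along the chromosomes: of 22976 tiles of 128 kb, 41.1% held at most 1 summit. These tiles include stretches without genes, and windows around other genes were not counted. The lack of a summit at TGFBR2 is the lack of a called peak at unknown depth, not the lack of SMAD2.

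Among the type I receptors, ACVR1 had 3 regions around its start that recurred in every library. The strongest lay on chromosome 2 at 158734775 to 158734793, at −1.79 kb from the start (upstream). It scored 59.5 and 50.4 in the palbociclib libraries and 41 and 65 in the activin libraries, and its 4 summits lay within 18 bp, the narrowest spread of the 15 recurrent regions. The region at the start, at 158732813 to 158732846, scored 38.9 and 33.8 with palbociclib and 26.5 and 27.4 with activin alone. The remaining region, at −2.40 kb (158735373 to 158735432), scored 21.7 and 20.1 with palbociclib and 13.5 and 16.1 with activin alone. ACVR1 is a type I receptor for BMPs and can also bind activin A. Its window also held the largest spread between replicates, with 4 and 10 summits in the activin libraries.

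The window of BMPR1A, a BMP type I receptor, held 33 summits over 209 kb, the most summits of the 9 windows. Within 2 kb of the start lay 11 of them. The leading region lay on chromosome 10 at 88515855 to 88515979, at the start of the gene. It scored 49.0 and 54.0 in the palbociclib libraries and 38.4 and 35.5 in the activin libraries. A neighbour 0.47 kb inside the gene, at 88516467 to 88516553, scored 13.9 and 58.6 with palbociclib and 19.4 and 12.7 with activin alone. After the start, 132 kb of the gene body held no summit in any list. A loose cluster of 13 summits, in regions centred 6.86 to 14.4 kb past the end, lay on the side of MMRN2, the next protein-coding gene in the RefSeq order. Its recurrent region, at 88696727 to 88696788, scored 3.37 and 6.04 with palbociclib and 5.21 and 9.35 with activin alone.

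TGFBR1, the type I receptor of TGF-β, had the densest window, with 7.22 summits per 100 kb and library. The region at its start, on chromosome 9 at 101866965 to 101867011, scored 35.6 and 17.3 in the palbociclib libraries and 8.35 and 8.56 in the activin libraries. It stood at 20.2% and 30.1% from the top of the palbociclib lists, and at 53.8% and 47.6% from the top of the activin lists. As at ACVR2B, scores and positions in lists of different length and depth are not read as a change. Around the start lay 12 summits, and 11 more formed a cluster 0.66 to 3.63 kb past the end. That cluster was split into many regions, and none of its regions was found in all libraries. ACVR1B, the activin type I receptor, was sparse by comparison, with 0 and 2 summits in the palbociclib libraries and 1 and 1 in the activin libraries. All of them lay 0.13 to 1.37 kb inside the gene on chromosome 12. The highest-scoring ones, in the region at 52345610 to 52345691, scored 13.3 in palbociclib replicate 2 and 10.4 in activin replicate 1.

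TGFBR3 encodes betaglycan, a co-receptor that presents TGF-β to TGFBR2 and binds inhibin. Its window of 267 kb was the longest and held 6 summits. The region found in all 4 libraries lay on chromosome 1 at 92351587 to 92351752, 20.3 kb inside the outer end of the span. It scored 7.11 and 7 in the palbociclib libraries and 6 and 4.22 in the activin libraries. In the RefSeq tables on GRCh38.p14, the listed start site of TGFBR3 lies 19.9 kb inside the outer end of the gene. The 2 distances were taken on different builds and were not matched base by base, so whether the region sits at that start was not tested. For the other 8 genes the listed start lay 0 to 1.47 kb inside the outer end. The palbociclib libraries each had 1 more summit, 169 and 159 kb inside the span, in separate places.

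**Figure D2:**
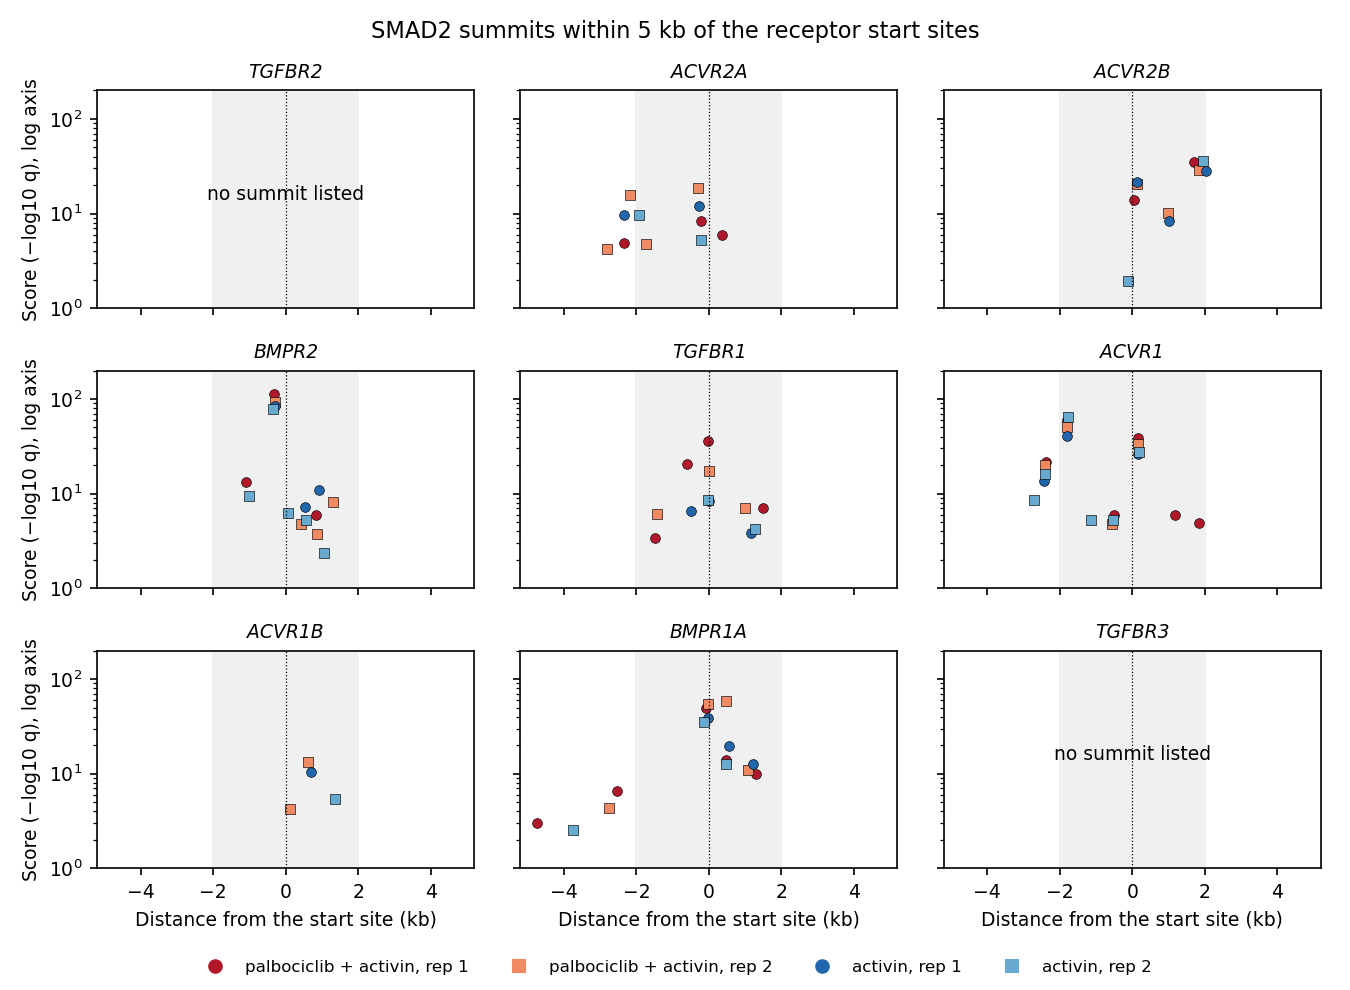
Summits within 5 kb of each start site are plotted by distance in kb and by score (−log10 q, log axis), with palbociclib libraries in red tones and activin libraries in blue tones, and circles and squares for replicates 1 and 2. The grey band marks 2 kb on either side of the start. BMPR2 reaches the highest scores, at 79.3 to 113, and ACVR1 shows 3 tight groups of 4 points. TGFBR2 and TGFBR3 have no summit in this interval. For TGFBR3 the point used is the outer end of the span, whereas its RefSeq start on GRCh38.p14 lies 19.9 kb inside the gene.

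**Figure D3:**
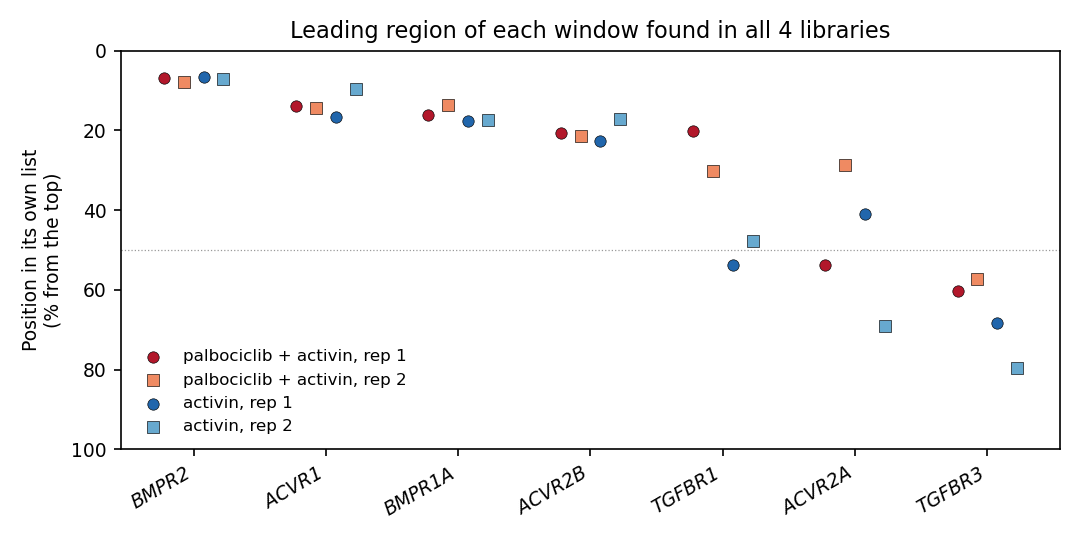
For each of the 7 genes with a region found in all 4 libraries, the leading region is plotted by its position in each list, in percent from the top (axis inverted, dotted line at 50%). BMPR2 stands at 6.58% to 7.76% in every list, and TGFBR3 at 57.2% to 79.5%, while positions in lists of different length are not a measure of change.

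Summits near the starts stood higher in their lists than the remaining summits of the windows. The median position of summits within 2 kb of a start was 39.1% and 38.5% from the top in the palbociclib lists, and 40.99% and 53.8% in the activin lists. For the summits elsewhere in the windows it was 62.9% and 65.6% in the palbociclib lists, and 60.1% and 77.6% in the activin lists. The order was the same in each of the 4 libraries. As a whole, receptor summits were not placed high. In the top 10% of their lists stood 1 of 40 and 1 of 40 summits in the palbociclib libraries, and 1 of 31 and 2 of 38 in the activin libraries, so shares of 2.50%, 2.50%, 3.23% and 5.26%. These included the leading BMPR2 region in each list and the leading ACVR1 region in activin replicate 2.

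The comparison of treatments asks whether palbociclib, an inhibitor of CDK4 and CDK6, alters SMAD2 binding at the receptor genes after activin. The 9 windows together held 40 and 40 summits in the palbociclib libraries, against 31 and 38 in the activin libraries. The means were 40 ± 0 and 34.5 ± 4.95 (SD, n = 2 each), a log2 ratio of 0.21, or 0.045 when all lists were shortened to the same length. Both palbociclib counts exceeded both activin counts, and p was 0.333 in the exact two-sided permutation test. With 2 libraries against 2 no smaller p can arise, so no comparison of groups here can pass 0.05. The palbociclib lists were also longer as a whole, 1.21-fold against the 1.16-fold of the receptor windows. As a share of its list, a library's receptor summits made up 0.0635% (exact Clopper-Pearson 95% interval 0.0454 to 0.0865) and 0.0613% (0.0438 to 0.0835) with palbociclib. With activin alone the shares were 0.0602% (0.0409 to 0.0854) and 0.0701% (0.0496 to 0.0961). The groups overlapped, with a difference of −0.0027 percentage points (exact permutation p = 1). These intervals cover counting error only. Without activin replicate 2 the difference was 0.0023, so its sign rested on that library.

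**Figure D4:**
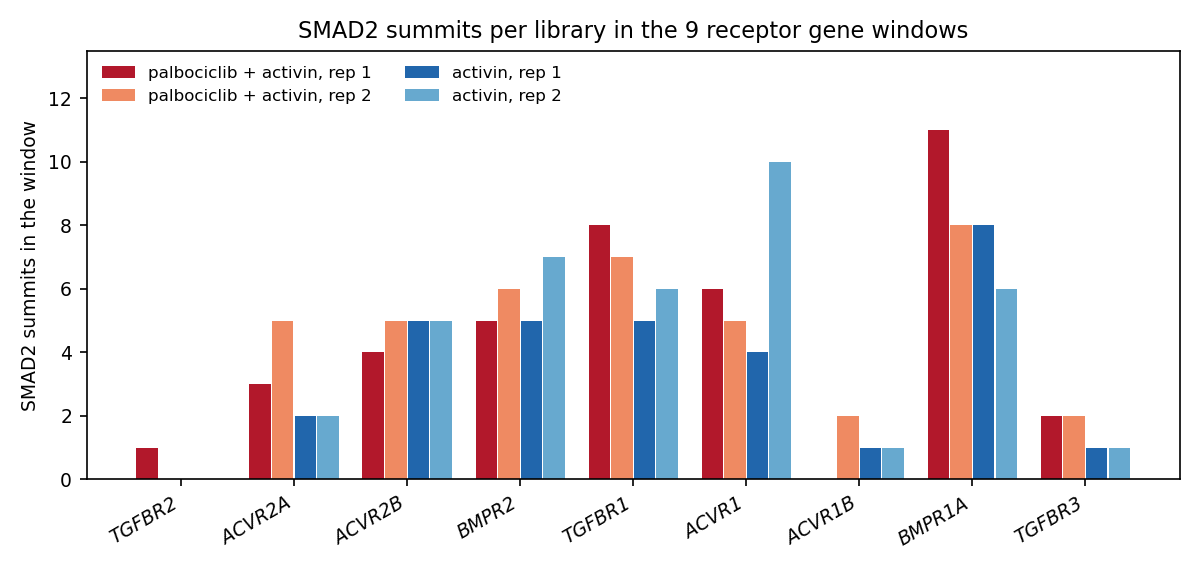
Bars give the number of SMAD2 summits in the window of each gene (span and 20 kb on either side), 1 bar per library, palbociclib libraries in red tones and activin libraries in blue tones. The palbociclib bars exceed both activin bars at ACVR2A, TGFBR1 and TGFBR3, and ACVR1 shows 4 and 10 in the activin libraries.

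Gene by gene, counts of the groups did not overlap at 3 of 9 genes, each with more summits after palbociclib, and at 0 of 9 with fewer. Among all 14204 tiles of 150 kb with a summit, 20.2% had palbociclib counts above both activin counts and 3.22% had them below. The lists as a whole thus leaned the same way. A tile with 1 summit can show neither pattern, and the tiles were not matched to the windows in length or number of summits. The 3 genes are too few to set apart from that background. TGFBR1 had 8 and 7 summits in the palbociclib libraries and 5 and 6 in the activin libraries (log2 ratio 0.45, but −0.32 when the 20 kb on either side of the span were left out). ACVR2A had 3 and 5 with palbociclib and 2 and 2 with activin alone, and TGFBR3 had 2 and 2 against 1 and 1. Each of these 3 genes had an exact permutation p of 0.333, and the Benjamini-Hochberg value over the 9 genes was 1. At the other genes the groups overlapped. BMPR1A had 11 and 8 summits with palbociclib and 8 and 6 with activin alone. ACVR1 had 6 and 5 with palbociclib and 4 and 10 with activin alone (log2 ratio −0.35, or 0.46 without activin replicate 2). BMPR2 had 5 and 6 against 5 and 7, with a log2 ratio of −0.13, or 0.14 without activin replicate 2. ACVR2B had 4 and 5 against 5 and 5. Within 2 kb of the starts, the counts were 19 and 20 with palbociclib and 15 and 18 with activin alone (exact permutation p = 0.333). In the rest of the windows they were 21 and 20 with palbociclib, and 16 and 20 with activin alone.

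Regions at the receptor genes recurred as often as regions elsewhere. In all 4 libraries were found 15 of the 74 receptor regions (20.3%), beside 20.4% of all regions. Both palbociclib libraries and neither activin library had a summit in 4 of 74 (5.41%), beside 5.29% of all. Both activin libraries and neither palbociclib library had one in 1 of 74 (1.35%), beside 2.22% of all. Only 1 library accounted for 38 of 74 (51.4%), beside 50.8% of all. Each of these shares was near the level of the whole lists.

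Of the 4 regions found with palbociclib alone, 3 lay at TGFBR1 and 1 past the end of BMPR1A. Their number depended on the setting: it was 1 in lists of equal length, 1 with a minimum score of 5 and 0 without the flanks. The TGFBR1 region at 101919242 to 101919441, 2.34 kb past the end of the gene, scored 10.7 and 10.6 in the palbociclib libraries. An activin replicate 2 summit lay 204 bp from it, just beyond the 200 bp used for joining. The one at 101920273 to 101920342, 3.31 kb past the end, scored 8.92 and 3.33, and an activin replicate 2 summit lay 287 bp away. The third, at 101865502 to 101865564 and at −1.47 kb from the start, scored 3.39 and 6.09, with an activin replicate 1 summit at 931 bp. At BMPR1A the region at 88695802 to 88695891, 10.8 kb past the end, scored 7.34 and 4.22, and the nearest activin summit lay 836 bp away. The 1 region found with activin alone lay deep in ACVR1, at 158639022 to 158639042, and scored 7.16 and 2.36 in the activin libraries. The nearest palbociclib summit lay 84903 bp from it. In its own lists it stood at 60.1% and 97.0% from the top.

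Over the autosomes and X, the full lists numbered 62960 and 65207 summits in the palbociclib libraries, and 51535 and 54243 in the activin libraries. Per Mb, the receptor windows held 28.6 and 28.6 summits in the palbociclib libraries and 22.1 and 27.1 in the activin libraries. The corresponding densities over the length between the first and last summit of each chromosome were 21.4 and 22.2 with palbociclib, and 17.5 and 18.4 with activin alone. The receptor windows were thus 1.34-fold and 1.29-fold as dense as the chromosomes with palbociclib, and 1.26-fold and 1.47-fold with activin alone. That length includes stretches without genes, and windows around other genes were not counted.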

How the data were processed

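The deposited files list, for each of 4 SMAD2 ChIP-seq libraries, single-base peak summits on hg19 with a score. Per the labels, MACS2 called the peaks with the untreated input. The submitters' processing notes name MACS2 2.0.9, Bowtie 1.1.0 and Picard, and filters and settings were not given in the sources used here. The score in the deposited lists is read as the −log10 of the q value, because the lowest score of each list was 1.31 to 1.34 and −log10 of 0.05 is 1.30. Peaks were listed per library, so replicates were not pooled in these lists. Read depth is unknown.

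The members, windows and lists were chosen with earlier results of these data known. Positions were made 1-based, and chromosomes 1 to 22 and X were kept. Windows were the 9 gene spans with 20 kb on either side, gene ends being known to 1 kb. Summits at most 200 bp apart were joined into regions, ranks were taken within each list with ties at the best rank, and groups were compared by exact two-sided permutation tests over the 4 libraries. Named were all 9 genes, in each window the region of all 4 libraries with the best worst rank, regions of all 4 libraries within 2 kb of a start, and up to 5 regions of each group-specific set. Other recurrent regions were named after their values were seen. Some alternatives at the starts, for named regions and without single genes were chosen after seeing the data. The region code was tested on simulated lists with well-separated regions and closely placed summits, so calls near the joining distance were not tested. Alternatives were minimum scores of 2 and 5, lists of equal length, no flank and 50 kb, joining distances of 100 and 500 bp, 5 kb around the starts, pairing by replicate number, and omission of single libraries or genes. Gene strands and promoters came from RefSeq (GRCh38.p14), in which all 9 genes matched, and neighbouring genes were taken by order only. ACVR1C, ACVRL1, BMPR1B, AMHR2 and ENG were not analysed, for want of spans on hg19. Python 3.11.15, numpy 2.4.6, pandas 2.3.3, scipy 1.17.1 and matplotlib 3.10.9 were used.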

Additional observations from a re-analysis of the deposited data

How the results depend on the processing

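The direction of the total count (log2 ratio 0.21) was kept under every alternative run, at 0.045 in lists of equal length, 0.13 with a minimum score of 5, 0.074 to 0.37 without each library and 0.15 to 0.33 without each gene. The difference in share (−0.0027 percentage points) reversed at equal list lengths (0.0019), with a flank of 50 kb (0.0016) and without activin replicate 2 (0.0023), and ranged from −0.0076 to 0.0023 without each library. Regions of all 4 libraries numbered 15, 8 with no flank, which leaves out summits upstream of the starts and past the ends, and 15 to 17 without each library. Regions of both palbociclib libraries alone (4) numbered 1 with a minimum score of 5, 1 in lists of equal length and 0 with no flank. Regions of both activin libraries alone (1) numbered 3 with that minimum, 0 in lists of equal length and 3 with a joining distance of 100 bp. These counts were 5 to 18 and 2 to 15 without each library, because the reduced group is then represented by 1 library. Single genes reversed as follows: ACVR2B (−0.15) to 0.36 with a minimum score of 5 and 0.22 with no flank, TGFBR1 (0.45) to −0.32 with no flank, ACVR1 (−0.35) to 0.46 and BMPR2 (−0.13) to 0.14 without activin replicate 2 (ranges without each library −0.86 to 0.46 and −0.35 to 0.14). The causes were not tested. Genes with a summit near the start in every library numbered 6, and 6 to 7 without each library. Of the 15 recurrent regions, 14 stayed in 4 libraries with a minimum score of 2, 10 with a minimum of 5 and 12 in lists of equal length. No ratio could be had for TGFBR2 in the main setting, where neither activin library listed a summit, and its ratio was not followed under the alternatives. Among the other genes, none could be had for ACVR2A with no flank, ACVR1B under the block and ACVR1B without palbociclib replicate 2.

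Libraries of the same number did not deviate together in the list positions of single regions (correlation −0.00066 over 23476 regions of all 4 libraries). That correlation cannot show a shift shared by whole libraries of the same number. Median scores were 9.41 with palbociclib and 9.46 with activin alone in replicate 1, and 8.39 and 8.34 in replicate 2. In both groups the list of replicate 2 was also the longer one. The numbers were not used as a pairing in the main comparison, and a shift shared by number was not tested. With the replicate block, which compares libraries of the same number, the total log2 ratio was 0.22, 19.5 regions on average were listed with palbociclib but not in its numbered partner, and 13.5 the other way round.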

Other observations

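Set against tiles of equal length along the chromosomes, the receptor windows ranged from sparse to dense. The share of tiles with at most as many summits over the 4 libraries was 93.2% for TGFBR1, 90.9% for ACVR2B, 85.7% for BMPR1A, 83.1% for ACVR1, 76.7% for ACVR2A, 75.7% for BMPR2, 66.0% for ACVR1B, 43.5% for TGFBR3 and 41.1% for TGFBR2. Tiles include stretches without genes. The windows of the 3 activin receptors ACVR2A, ACVR2B and ACVR1B, which pass the activin signal to SMAD2, held 12, 19 and 4 summits. These windows were 127, 80 and 86 kb long, and 5 of the ACVR2B summits lay past its end. A difference among the 3 was not tested. The longest stretch with no summit in any list covered 138 kb at TGFBR3, 81.9 kb at TGFBR2, 64.6 kb at ACVR1B and 29.8 kb at TGFBR1.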
